A study of Mus musculus with 6 samples.

Results

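The insulin-like growth factor (IGF) system was examined in the mouse left ventricle under pressure overload. It was taken as 10 genes chosen by name: the ligands Igf1 and Igf2, the receptors Igf1r and Igf2r, and the binding proteins Igfbp2 to Igfbp7. A gene was included when the annotation of the array gave a row that single symbol, and all 10 genes had 1 such row among 14860 genes measured. Ventricles of male C57BL/6 wild-type mice were collected after 4 weeks of transverse aortic constriction (4 W TAC, 2 arrays), after 1 week of constriction (1 W TAC, 2 arrays), or after an operation that left the aorta open (Sham, 2 arrays). The constriction was a ligature around the aorta tied over a needle, which leaves the left ventricle to pump against a narrowed outlet. No mouse carried a transgene or a deletion, each group held 2 mice, and the sources used here give neither the ages of the mice nor the time at which Sham hearts were taken.

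IGF1 and IGF2 are secreted peptides that signal through the receptor tyrosine kinase IGF1R, which acts on the PI3K and Akt arm and on the Ras and MAPK arm. IGF2R has no kinase and carries IGF2 to lysosomes. The binding proteins hold IGFs in blood and tissue, prolong their life, and can limit or aid their access to the receptor, while proteases release them. In the heart, IGF1 signaling is known for its part in the growth of cardiac myocytes, and IGF1 is also made by fibroblasts and macrophages.

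Values are gene-level signals on the log2 scale, and log2 ratios subtract one group mean from another. Igf1 and Igfbp7 lay highest in 1 W TAC, 1.46 and 1.18 log2 units above Sham. Igfbp6 lay highest in 4 W TAC, 0.97 above Sham. Igfbp3 was the only member below Sham in 1 W TAC, by a log2 ratio of -0.32, and it lay above Sham in 4 W TAC. With 2 arrays in a group and p-values adjusted over all 23332 rows of the array, no member passed the test (limma, adjusted p under 0.05) in any comparison, so the values below describe these 6 ventricles.

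The 6 arrays had medians of 5.85 to 6.04 over the 14860 genes, and any pair of arrays correlated with r between 0.963 and 0.980 over rows. Tnnt2, cardiac troponin T, was between 12.65 and 12.83 on every array, with a log2 ratio of -0.10 in 1 W TAC against Sham. Of the 5 cardiac myocyte markers measured, 4 had a ratio below 0 in that comparison and 1 above. Their ratios ran from -0.41 (Pln) to 0.15 (Actn2), both without overlap with Sham. Sham replicate 1 and 4 W TAC replicate 1 stood apart by Ucp1, the uncoupling protein of brown fat. Ucp1 signals were 6.35 and 3.96 in 4 W TAC, 4.40 and 4.18 in 1 W TAC, and 8.21 and 4.19 in Sham. Member ratios that moved by more than 1.5 times without those 2 arrays, or without any single array, are given with the values so obtained.

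**Figure D1:**
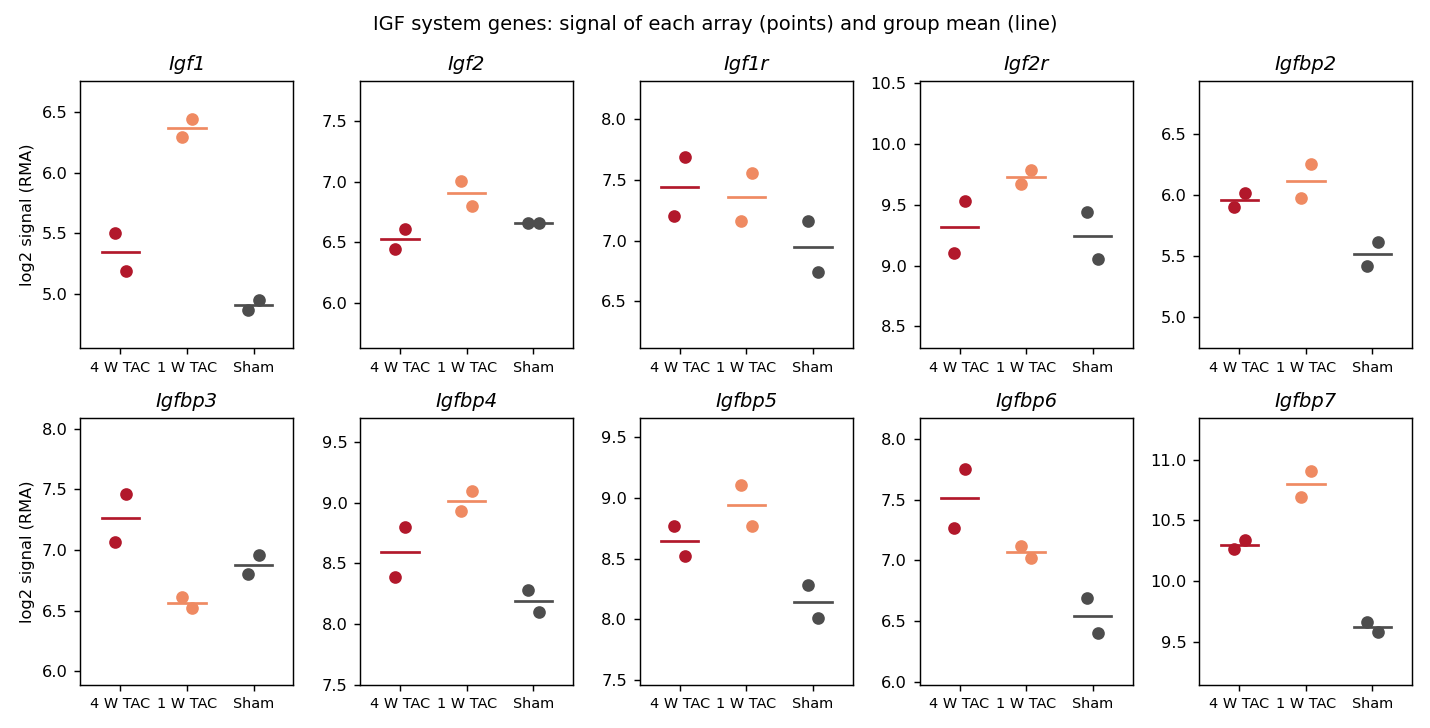
Log2 signal (y axis, RMA) of each IGF system gene on each of the 6 arrays (points) with the group mean (line), for 4 W TAC, 1 W TAC and Sham (x axis). Every panel spans the same number of log2 units; both 1 W TAC points of Igf1 (6.29 and 6.44) and of Igfbp7 (10.69 and 10.91) lie above all other points of the gene, and those of Igfbp3 (6.61 and 6.52) lie below.

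To show the start regions of the members with the highest ratios to Sham (Igf1 and Igfbp7 in 1 W TAC, Igfbp6 in 4 W TAC) and of Igfbp3, which lay below Sham in 1 W TAC, the 150 bases before the RefSeq start of each gene are printed 5′ to 3′ on the strand of the gene (RefSeq, build GRCm38.p6). Capitals mark matches on either strand to the TATA box (TATAAA), the GC box (GGGCGG), the core bound by AP-1 factors (TGANTCA), the E-box (CACGTG) or the CArG box, and no matches overlapped in these windows.
Igf1 (chr10:87860961-87861110, plus strand): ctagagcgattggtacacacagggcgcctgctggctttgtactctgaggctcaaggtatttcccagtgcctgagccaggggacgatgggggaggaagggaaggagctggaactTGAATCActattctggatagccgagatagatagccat
Igfbp7 (chr5:77408046-77408195, minus strand): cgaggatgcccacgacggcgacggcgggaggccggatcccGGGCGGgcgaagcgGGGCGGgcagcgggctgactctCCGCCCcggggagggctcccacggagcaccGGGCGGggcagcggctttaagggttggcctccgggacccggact
Igfbp6 (chr15:102144036-102144185, plus strand): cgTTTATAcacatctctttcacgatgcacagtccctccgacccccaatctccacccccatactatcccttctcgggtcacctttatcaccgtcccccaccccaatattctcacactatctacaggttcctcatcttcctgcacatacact
Igfbp3 (chr11:7213924-7214073, minus strand): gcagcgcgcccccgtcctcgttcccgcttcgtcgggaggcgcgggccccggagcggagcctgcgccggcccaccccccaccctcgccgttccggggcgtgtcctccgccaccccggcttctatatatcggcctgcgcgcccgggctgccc

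The Igf1 window held 1 TGANTCA match, which 4.24% of 32851 mouse promoter windows of the same length held. The Igfbp7 window held 4 matches to GGGCGG, and 28.6% of all windows held 1 or more. The Igfbp6 window held 1 TATAAA match on the reverse strand, against 7.57% of all windows, and the Igfbp3 window held none of the 5 motifs. CACGTG was found in 4.30% of all windows and the CArG box in 0.916%, and neither was present in these 4. The median GC content was 67.3% over the 14 annotated starts of the 10 members and 54.0% over all promoter windows. Such matches describe the letters only.

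Igf1 encodes the main IGF ligand of postnatal tissues. Its signals were 5.50 and 5.19 in 4 W TAC, 6.29 and 6.44 in 1 W TAC, and 4.87 and 4.95 in Sham. The 3 groups did not overlap, with 1 W TAC highest, 4 W TAC between and Sham lowest. Its log2 ratio in 1 W TAC against Sham was 1.46 (95% interval 1.00 to 1.91, a 2.74-fold difference), with an unadjusted p of 0.000279 and an adjusted p of 0.136 by limma. The Igf1 signals in Sham and on 4 W TAC replicate 2 lay under the median of all rows on those arrays (5.35 to 5.38). With no detection calls, ratios to Sham are ratios to signals not shown to be above background. The 1 W TAC ratio ranked 144 of 14860 genes from the highest. When only the 14996 rows with 1 gene symbol were tested, the adjusted p was 0.0142, and over all alternatives tried with limma it ranged between 0.0142 and 0.585. For 4 W TAC against Sham the log2 ratio was 0.44 (adjusted p = 0.899), but 0.24 without the 2 arrays of high Ucp1 and 0.28 without 4 W TAC replicate 1. Between the 2 times, 4 W TAC lay below 1 W TAC with a log2 ratio of -1.02 (95% interval -1.47 to -0.57, unadjusted p = 0.00171, adjusted p = 0.531), rank 14722 of 14860 genes from the highest.

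Igf2, the ligand that is prominent in fetal life, varied much less. Its signals were 6.45 and 6.61 in 4 W TAC, 7.01 and 6.80 in 1 W TAC, and 6.66 and 6.66 in Sham. Both 1 W TAC arrays lay above Sham and both 4 W TAC arrays below it, but the gaps were small: the log2 ratio was -0.13 (SE 0.17, adjusted p = 0.983) in 4 W TAC against Sham and 0.25 (SE 0.17, adjusted p = 0.692) in 1 W TAC against Sham. For 4 W TAC it was -0.05 without 4 W TAC replicate 1 and -0.21 without 4 W TAC replicate 2, and for 1 W TAC it was 0.14 without 1 W TAC replicate 1. Leaving out the 2 arrays of high Ucp1 also gave -0.05 for 4 W TAC. Neither interval left out 0, and Igf2 in 4 W TAC and Sham did not differ beyond the spread of the fit.

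Igf1r encodes the signaling receptor. Its signals were 7.20 and 7.69 in 4 W TAC, 7.16 and 7.56 in 1 W TAC, and 7.16 and 6.74 in Sham. Sham replicate 1 and 1 W TAC replicate 1 had the same value, so these groups touched, and the 2 TAC groups overlapped over most of their range. The log2 ratio was 0.50 (95% interval -0.18 to 1.17, adjusted p = 0.956) in 4 W TAC against Sham and 0.41 (95% interval -0.26 to 1.08, adjusted p = 0.669) in 1 W TAC against Sham. Igf1r had the largest SE of the members, 0.27. The 4 W TAC ratio was 0.25 without 4 W TAC replicate 2 and 0.29 without Sham replicate 2, but 0.95 without the 2 arrays of high Ucp1. The 1 W TAC ratio was 0.21 without 1 W TAC replicate 2 and 0.20 without Sham replicate 2, but 0.62 without Sham replicate 1, one of the 2 arrays of high Ucp1.

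Igf2r, the clearance receptor for IGF2, had signals of 9.10 and 9.53 in 4 W TAC, 9.67 and 9.79 in 1 W TAC, and 9.44 and 9.05 in Sham. The 4 W TAC and Sham arrays overlapped, and both 1 W TAC arrays lay above them. The log2 ratio was 0.07 (95% interval -0.50 to 0.64, adjusted p = 0.988) in 4 W TAC against Sham and 0.49 (95% interval -0.09 to 1.06, adjusted p = 0.523) in 1 W TAC against Sham. The 1 W TAC ratio was 0.29 without Sham replicate 2. The 4 W TAC ratio was 0.48 without the 2 arrays of high Ucp1, 0.29 without 4 W TAC replicate 1 and 0.27 without Sham replicate 1, and it turned negative when either 4 W TAC replicate 2 (-0.15) or Sham replicate 2 (-0.13) was left out, so no direction is given for it.

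Among the binding proteins, Igfbp7 had the widest separation of groups. Its product, also called IGFBP-rP1, binds IGFs weakly and is found in vessels and matrix. Igfbp7 signals were 10.26 and 10.34 in 4 W TAC, 10.69 and 10.91 in 1 W TAC, and 9.66 and 9.58 in Sham, with the groups in the same order as for Igf1 and no overlap. The log2 ratio in 1 W TAC against Sham was 1.18 (95% interval 0.76 to 1.59, 2.27-fold, unadjusted p = 0.000518, adjusted p = 0.141). With only rows of 1 gene symbol the adjusted p was 0.0203, and over all alternatives with limma it lay between 0.0203 and 0.592. It was 0.68 in 4 W TAC against Sham (95% interval 0.26 to 1.09, 1.60-fold, unadjusted p = 0.00744, adjusted p = 0.686). Between the times, 4 W TAC against 1 W TAC, it was -0.50 (unadjusted p = 0.0261, adjusted p = 0.705).

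Igfbp4, which restrains IGFs and is cut by the protease PAPP-A, and Igfbp5, which binds matrix and is a neighbor of Igfbp2 on chromosome 1, followed the same order of groups with smaller steps. Igfbp4 signals were 8.39 and 8.80 in 4 W TAC, 8.93 and 9.10 in 1 W TAC, and 8.28 and 8.10 in Sham. Its log2 ratio was 0.41 (adjusted p = 0.945) in 4 W TAC against Sham and 0.83 (1.77-fold, unadjusted p = 0.00808, adjusted p = 0.257) in 1 W TAC against Sham. Its 4 W TAC ratio was 0.20 without 4 W TAC replicate 2, 0.61 without 4 W TAC replicate 1 and 0.70 without the 2 arrays of high Ucp1. All TAC arrays lay above both Sham arrays.
Igfbp5 signals were 8.77 and 8.52 in 4 W TAC, 9.11 and 8.77 in 1 W TAC, and 8.28 and 8.01 in Sham. Its log2 ratio was 0.50 (adjusted p = 0.899) in 4 W TAC against Sham and 0.80 (unadjusted p = 0.0104, adjusted p = 0.272) in 1 W TAC against Sham. The 2 TAC groups shared the value 8.77 and did not separate.

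Igfbp2, a carrier abundant in fetal tissue, also lay above Sham on all 4 TAC arrays. Its signals were 5.90 and 6.02 in 4 W TAC, 5.98 and 6.26 in 1 W TAC, and 5.42 and 5.61 in Sham. The log2 ratio was 0.45 (adjusted p = 0.898) in 4 W TAC against Sham and 0.61 (1.52-fold, unadjusted p = 0.0182, adjusted p = 0.317) in 1 W TAC against Sham. The 4 W TAC and 1 W TAC arrays overlapped, with a log2 ratio of -0.16 between them.

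Igfbp6, which prefers IGF2 over IGF1, differed from the binding proteins above in that 4 W TAC was highest. The mean of Igf1r was also highest in 4 W TAC, but there the 2 TAC groups overlapped. Igfbp6 signals were 7.27 and 7.75 in 4 W TAC, 7.12 and 7.02 in 1 W TAC, and 6.69 and 6.40 in Sham. The groups did not overlap. The log2 ratio in 4 W TAC against Sham was 0.97 (95% interval 0.40 to 1.53, 1.95-fold, unadjusted p = 0.00599, adjusted p = 0.662), rank 97 of 14860 genes from the highest. It was 0.53 in 1 W TAC against Sham (SE 0.23, adjusted p = 0.474). The 4 W TAC and 1 W TAC groups, neighbors in that order, did not differ beyond the error of the fit (log2 ratio 0.44, 95% interval -0.12 to 1.00, adjusted p = 0.824).

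Igfbp3, the main IGF carrier of blood serum, ran the other way at 1 week. Its signals were 7.07 and 7.46 in 4 W TAC, 6.61 and 6.52 in 1 W TAC, and 6.80 and 6.96 in Sham, again without overlap. The log2 ratio was 0.39 (95% interval -0.10 to 0.87, adjusted p = 0.946) in 4 W TAC against Sham and -0.32 (95% interval -0.80 to 0.17, adjusted p = 0.645) in 1 W TAC against Sham. For 4 W TAC the ratio was 0.19 without 4 W TAC replicate 2 and 0.58 without 4 W TAC replicate 1. The step between the times was larger: in 4 W TAC against 1 W TAC the log2 ratio was 0.70 (95% interval 0.21 to 1.19, unadjusted p = 0.0133, adjusted p = 0.648), rank 147 of 14860 genes from the highest.

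**Figure D2:**
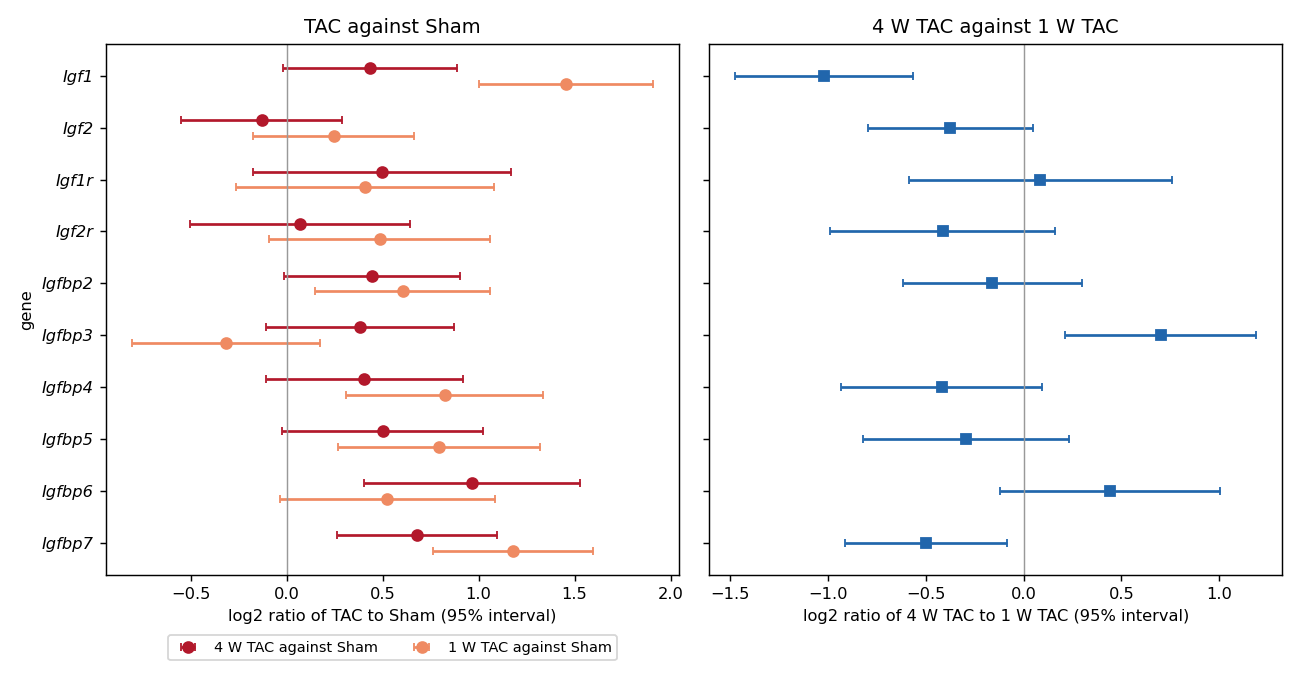
Log2 ratios (x axis) with 95% intervals of the fit for each IGF system gene (y axis); the left panel sets 4 W TAC and 1 W TAC against Sham, the right panel sets 4 W TAC against 1 W TAC. In the right panel the intervals of Igf1, Igfbp7 and Igfbp3 leave out 0, with Igf1 at -1.02, Igfbp7 at -0.50 and Igfbp3 at 0.70.

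Over the 10 members, the median log2 ratio was 0.44 in 4 W TAC against Sham, beside 0.04 over all genes, and 0.57 in 1 W TAC against Sham, beside 0.01 over all genes. Both comparisons use the same 2 Sham arrays. Of the members, 9 were above 0 and 1 was below in 4 W TAC against Sham, while 57.6% of all genes were above 0. For 1 W TAC against Sham 9 were above and 1 below as well, while 51.8% of all genes were above 0. The member below Sham was Igf2 in 4 W TAC and Igfbp3 in 1 W TAC.

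Considering 4 W TAC against Sham, both TAC arrays lay above both Sham arrays for 8 members, which held for 17.3% of all genes, and below them for 1 member, which held for 12.9% of all genes. By unadjusted p under 0.05, 2 members passed (Igfbp6 and Igfbp7), beside 3.81% of all genes, and none passed after adjustment by limma, as for 0.0% of all rows. Considering 1 W TAC against Sham, 8 members lay higher without overlap, beside 22.1% of all genes, and 1 lay lower, beside 20.4%. By unadjusted p under 0.05, 5 members passed (Igf1, Igfbp2, Igfbp4, Igfbp5 and Igfbp7), beside 12.0% of all genes. After adjustment over all rows 0 members passed, beside 0.00429% of rows (1 of 23332). With rows of 1 gene symbol only, 2 members passed as higher, Igf1 and Igfbp7, beside 1.37% of those rows.

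The direct comparison of the times asks what differs between short and long overload. The median log2 ratio of the members in 4 W TAC against 1 W TAC was -0.34, beside 0.02 over all genes, with 3 members above 0 and 7 below, while 52.6% of all genes were above 0. Igfbp3 and Igfbp6 lay higher without overlap, beside 20.3% of all genes. Igf1, Igf2, Igf2r, Igfbp4 and Igfbp7 lay lower without overlap, beside 16.6% of all genes. By unadjusted p under 0.05, 3 members passed (Igf1, Igfbp3 and Igfbp7), beside 5.79% of all genes, and none passed after adjustment by limma, as for 0.0% of rows. Igf1r had a log2 ratio of 0.09 (95% interval -0.59 to 0.76) with overlapping arrays, and its direction turned when 4 W TAC replicate 2 or 1 W TAC replicate 1 was left out. When single arrays were left out, the ratio of 4 W TAC to 1 W TAC ranged from -0.16 to 0.33 for Igf1r, from -0.63 to -0.20 for Igf2r, from -0.30 to -0.02 for Igfbp2, from -0.63 to -0.22 for Igfbp4, from -0.47 to -0.13 for Igfbp5 and from 0.20 to 0.68 for Igfbp6. These ends came from leaving out 4 W TAC replicate 1 (-0.20 for Igf2r, -0.22 for Igfbp4, 0.68 for Igfbp6), 4 W TAC replicate 2 (-0.63 for Igf2r, 0.20 for Igfbp6), 1 W TAC replicate 1 (-0.30 for Igfbp2, -0.13 for Igfbp5) and 1 W TAC replicate 2 (-0.02 for Igfbp2, -0.47 for Igfbp5). The median of the members was -0.21 without 4 W TAC replicate 1. Adjusted p-values of the members ranged from 0.531 to 0.993. The methods' t-test, an alternative whose threshold the study states for splicing factors only, had no member past it after Benjamini-Hochberg adjustment in any of the 3 comparisons.

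Likeness to Igf1 was measured as the Euclidean distance over the 6 arrays between signals taken as differences from the Sham mean of each gene. Outside the members, the nearest genes were Mfap2, a microfibril protein (distance 0.34), Oaf (0.36), C1qc, a chain of complement C1q made by macrophages (0.41), Col11a1, a chain of fibrillar collagen (0.45), and Sh3bgrl3 (0.45). Col11a1 signals in 4 W TAC (4.62 and 4.81) and Sham (4.29 and 4.41) lay under the median of all rows on those arrays (5.35 to 5.38). They were not shown to be above background. C1qc signals were 7.23 and 7.19 in 4 W TAC, 8.12 and 8.43 in 1 W TAC, and 6.58 and 6.67 in Sham. Mfap2 signals were 6.45 and 6.41 in 4 W TAC, 7.39 and 7.74 in 1 W TAC, and 6.02 and 6.27 in Sham. That both genes were highest on the 1 W TAC arrays, as Igf1 was, follows from how they were picked. Among the members, Igfbp7 was nearest to Igf1 (distance 0.60, with 36 genes nearer), followed by Igfbp5 (1.03) and Igfbp4 (1.04). Igfbp3 was farthest, at 2.56, with 12074 genes nearer to Igf1. These distances are descriptions over 6 arrays.

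In a whole ventricle, more cells of a type and more RNA per cell cannot be told apart, and marker genes of other cells moved alongside the members. All 6 fibroblast markers were measured, and their summed linear signal was 7310 to 8436 in 4 W TAC, 11048 to 12215 in 1 W TAC, and 4817 to 5203 in Sham. Without overlap, 5 of 6 lay above Sham in 4 W TAC and 6 of 6 in 1 W TAC, beside 17.3% of all genes in 4 W TAC and 22.1% in 1 W TAC. The 6 macrophage markers summed to 756 to 960 in 4 W TAC, 1384 to 1844 in 1 W TAC, and 621 to 718 in Sham, with 2 of 6 above and 1 of 6 below Sham without overlap in 4 W TAC, and 5 of 6 above in 1 W TAC. Both sums were in the same order of groups as Igf1, Igfbp7 and Igfbp4, but not every marker was. The fibroblast markers Pdgfra and Dcn had log2 ratios of 0.07 and 0.035 in 4 W TAC against 1 W TAC, with overlap. The macrophage marker Cd163 lay below Sham in 4 W TAC. Col1a1 had the largest log2 ratio of the fibroblast list in 1 W TAC against Sham, 3.33, and weighs in its sum. The part of both lists in the values of these members was not tested. No marker is at 0 on this scale, on which the lowest signal of any row was 0.57.

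Cardiac myocyte markers (5 of 6 measured) summed to 31383 to 32295 in 4 W TAC, 29121 to 29531 in 1 W TAC, and 32566 to 33872 in Sham. Endothelial markers (6 of 6) summed to 3484 to 3681 in 4 W TAC, 3012 to 3087 in 1 W TAC, and 2933 to 3404 in Sham. Atrial markers (2 of 3) summed to 284 to 567 in 4 W TAC, 107 to 141 in 1 W TAC, and 233 to 307 in Sham. The atrial, cardiac myocyte and erythroid sums were all lowest in 1 W TAC, as was Igfbp3, but some single markers differed. The erythroid marker Slc4a1 and the cardiac myocyte marker Ryr2 had their lowest mean in 4 W TAC. Actn2, another cardiac myocyte marker, was lowest in Sham. The part of these lists in the Igfbp3 values was not tested. Myl7, the atrial myosin light chain, had signals of 7.77 and 8.92 in 4 W TAC, 6.74 and 6.33 in 1 W TAC, and 7.59 and 8.06 in Sham. Smooth muscle and pericyte markers had overlapping sums in all groups, 3591 to 4370 in 4 W TAC, 3783 to 4019 in 1 W TAC, and 3714 to 4187 in Sham. Mesothelial sums of both TAC groups lay inside the Sham range of 170 to 199, and fat markers (5 of 6) summed to 291 to 436 in 4 W TAC, 276 to 305 in 1 W TAC, and 299.7 to 628 in Sham. Lymphocyte sums (3 of 4) were 78.0 to 82.7 in 4 W TAC, 90.2 to 98.3 in 1 W TAC, and 56.8 to 85.9 in Sham. Erythroid sums (2 of 3) were 129 to 161 in 4 W TAC, 95.4 to 128 in 1 W TAC, and 215 to 220 in Sham.

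**Figure D3:**
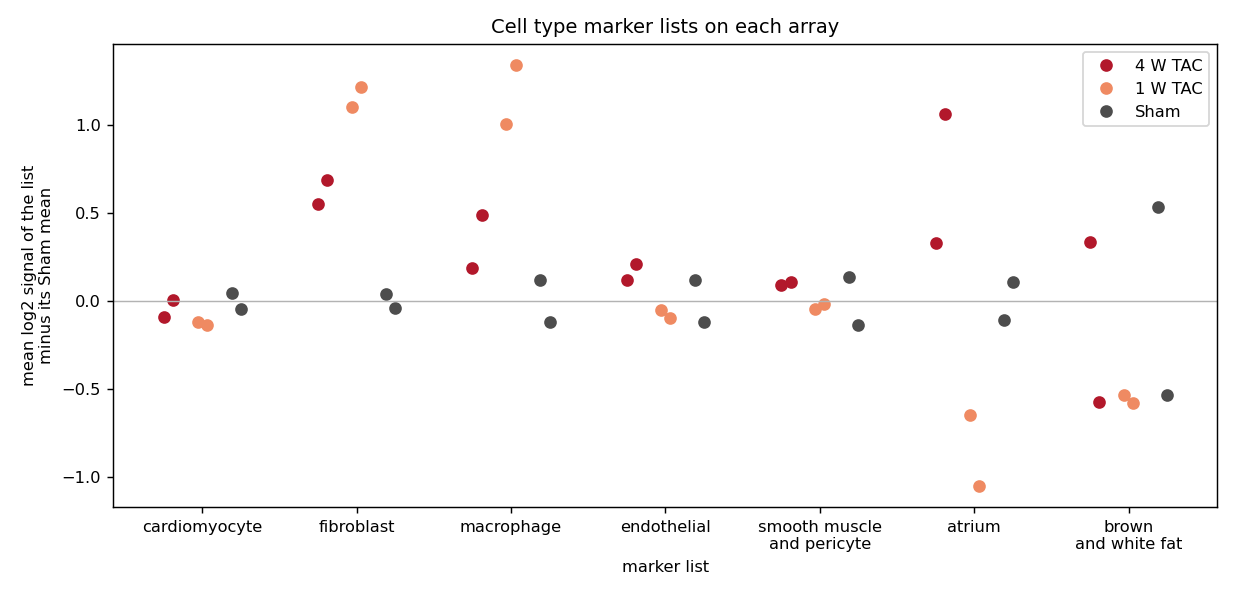
Mean log2 signal of each marker list (x axis) on each array minus the mean of the 2 Sham arrays (y axis, log2 units), with points for 4 W TAC, 1 W TAC and Sham. Fibroblast and macrophage points are highest in 1 W TAC, atrial points are lowest in 1 W TAC, and 1 array of 4 W TAC and 1 of Sham stand high for fat.

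To see whether genes linked to the members moved, 7 lists of 73 genes (the pathway lists) were examined, of which 56 genes were measured. They hold genes that carry, receive or relay IGF signals. They also hold the growth hormone arm, IGF mRNA-binding proteins and the CCN genes with Esm1, which are not parts of IGF signaling itself. None passed the test by limma over all rows in any comparison. By unadjusted p under 0.05 there were 2 genes in 4 W TAC against Sham, 11 in 1 W TAC against Sham and 5 in 4 W TAC against 1 W TAC, beside 3.81%, 12.0% and 5.79% of all genes in that order. The pooled median log2 ratio was 0.11 in 4 W TAC against Sham and -0.02 in 1 W TAC against Sham, beside the medians of all genes of 0.04 and 0.01. With rows of 1 gene symbol only, 3 listed genes passed in 1 W TAC against Sham, all higher, beside 1.37% of those rows. They were Mmp2, of the carriers and proteases, and Ccn2 and Ccn4, of the CCN list.

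IGF carriers and proteases (10 of 12 measured) had a median log2 ratio of 0.13 in 4 W TAC and 0.10 in 1 W TAC against Sham. Mmp2, a matrix metalloprotease that can cut binding proteins, had signals of 9.13 and 9.83 in 4 W TAC, 9.94 and 9.96 in 1 W TAC, and 8.19 and 8.02 in Sham. Its log2 ratio was 1.38 (adjusted p = 0.575) in 4 W TAC and 1.85 (adjusted p = 0.141, or 0.0166 with rows of 1 gene symbol) in 1 W TAC. Adam12, a protease known to cut IGFBP3 and IGFBP5, had log2 ratios of 0.24 in 4 W TAC and 0.85 in 1 W TAC. Adam12 signals were 5.14 and 4.85 in 4 W TAC and 4.82 and 4.70 in Sham. These lay under the median of all rows on those arrays (5.35 to 5.38) and were not shown to be above background. Adamts1 had log2 ratios of 0.31 in 4 W TAC and 0.61 in 1 W TAC. At the other end in 1 W TAC were Igfals, the acid-labile subunit of the serum complex (-0.51), the protease Htra1 (-0.47) and Stc2, a stanniocalcin that inhibits PAPP-A (-0.28). Igfals signals in 1 W TAC, 4.66 and 4.81, lay under the median of all rows on those arrays (5.38 and 5.43). Igfbp1, the remaining classical binding protein and the neighbor of Igfbp3 on chromosome 11, was singled out after its values were seen: its log2 ratio was 0.16 in 4 W TAC and -0.03 in 1 W TAC, and its groups overlapped.

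The insulin receptor family and adaptors (10 of 12 measured) had a median log2 ratio of 0.07 in 4 W TAC against Sham and between -0.01 and 0 in 1 W TAC. Grb10, an adaptor that restrains IGF1R and insulin receptor signaling, had signals of 8.34 and 8.99 in 4 W TAC, 8.39 and 8.82 in 1 W TAC, and 8.17 and 7.90 in Sham, with log2 ratios of 0.63 in 4 W TAC (adjusted p = 0.920) and 0.57 in 1 W TAC (adjusted p = 0.548). Its relative Grb14 lay below Sham, with log2 ratios of -0.28 in 4 W TAC and -0.55 in 1 W TAC. The phosphatase Ptpn1 (0.53) and the adaptor Shc1 (0.40) were next to Grb10 in 1 W TAC. At the lower end, Insr, the insulin receptor (-0.22), and the phosphatase Ptpn11 (-0.21) came after Grb14 with smaller differences, and Ptpn11 overlapped with Sham.

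In the PI3K, Akt and mTOR arm (16 of 22 measured), ratios to the Sham mean were small and mostly of one sign at each time. In 4 W TAC against Sham 14 were above 0 and 2 below, while 57.6% of all genes were above 0, and the median log2 ratio was 0.08. Without overlap, 4 lay higher and 1 lower, beside 17.3% and 12.9% of all genes. In 1 W TAC against Sham 3 were above and 13 below, while 51.8% of all genes were above 0, and the median was -0.08. Without overlap, 0 lay higher and 4 lower, beside 22.1% and 20.4% of all genes. For Pik3ca, Tsc1, Rictor and Gsk3b both 1 W TAC arrays lay between the 2 Sham arrays. The 1 W TAC mean also lay between them for Pik3cb, Pdpk1, Akt1, Rptor, Foxo1 and Foxo4. For all of these genes the sign in 1 W TAC depended on the Sham array. The lowest ratio in 1 W TAC was that of Pik3r1, the p85 regulatory subunit (-0.59). Rheb, the activator of mTOR (-0.30), and the transcription factor Foxo3 (-0.21) followed. The highest ratios in 1 W TAC were those of Pik3r2 (0.09), Pdpk1 (0.08) and Pik3cb (0.07). Between 4 W TAC and 1 W TAC, 15 of 16 were above 0, where Igf1 itself was below 0, and 7 of 16 lay higher without overlap, beside the 20.3% of all genes given above. The Ras, Raf and MAPK arm (4 of 10 measured) had all ratios above 0 in both TAC groups, with medians of 0.19 in 4 W TAC and 0.15 in 1 W TAC. The lowest was 0.01, of Map2k2 in 1 W TAC. Without overlap, 0 of 4 lay higher in 4 W TAC and 1 of 4 in 1 W TAC, beside 17.3% and 22.1% of all genes.

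The growth hormone arm, which drives Igf1 transcription in liver, was measured in full (8 of 8) and had a median log2 ratio of 0.09 in 4 W TAC and -0.11 in 1 W TAC against Sham. Ghr, the growth hormone receptor, lay below Sham at both times, with signals of 8.68 and 8.69 in 4 W TAC, 8.55 and 8.53 in 1 W TAC, and 9.08 and 8.90 in Sham. Its log2 ratio was -0.31 in 4 W TAC (adjusted p = 0.947) and -0.45 in 1 W TAC (adjusted p = 0.378). Stat5b, the factor that relays the receptor, had -0.05 in 4 W TAC and -0.47 in 1 W TAC, and Cish, a STAT5 target, had 0.06 in 4 W TAC and -0.31 in 1 W TAC. The inhibitors Socs3 (0.62) and Socs2 (0.33) lay above Sham in 1 W TAC. Of the 8 genes, 4 lay below and 2 above Sham without overlap in 1 W TAC, beside 20.4% and 22.1% of all genes. Of the IGF mRNA-binding proteins, which hold Igf2 mRNA, Igf2bp1 and Igf2bp3 were measured, with log2 ratios of -0.15 and 0.12 in 4 W TAC and of -0.05 and 0.24 in 1 W TAC. Signals of both genes, 3.18 to 4.27, lay under the median of all rows on every array (5.35 to 5.43) and were not shown to be above background.

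Other genes once grouped with Igfbp7 as IGFBP-related proteins, the CCN genes and Esm1 (6 of 6 measured), had a median log2 ratio of 0.34 in 4 W TAC and 0.58 in 1 W TAC against Sham. Ccn2, connective tissue growth factor, had signals of 10.28 and 11 in 4 W TAC, 11.20 and 11.69 in 1 W TAC, and 8.98 and 8.98 in Sham. Its log2 ratio was 1.66 in 4 W TAC (adjusted p = 0.575) and 2.47 in 1 W TAC (adjusted p = 0.136, or 0.0116 with rows of 1 gene symbol). Ccn4 had 0.42 in 4 W TAC and 1.32 in 1 W TAC, and Ccn1 had 0.27 in 4 W TAC and 0.83 in 1 W TAC, so that these 3 genes had the order of groups seen for Igfbp7. Ccn3 lay on the other side of Sham, at -0.65 in 4 W TAC and -0.52 in 1 W TAC. Ccn5 had the larger ratio at the later time (0.60 in 4 W TAC, 0.33 in 1 W TAC). Unlike those of Igfbp6, its TAC arrays overlapped, with 7.96 and 8.62 in 4 W TAC and 8.06 and 7.99 in 1 W TAC.

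**Figure D4:**
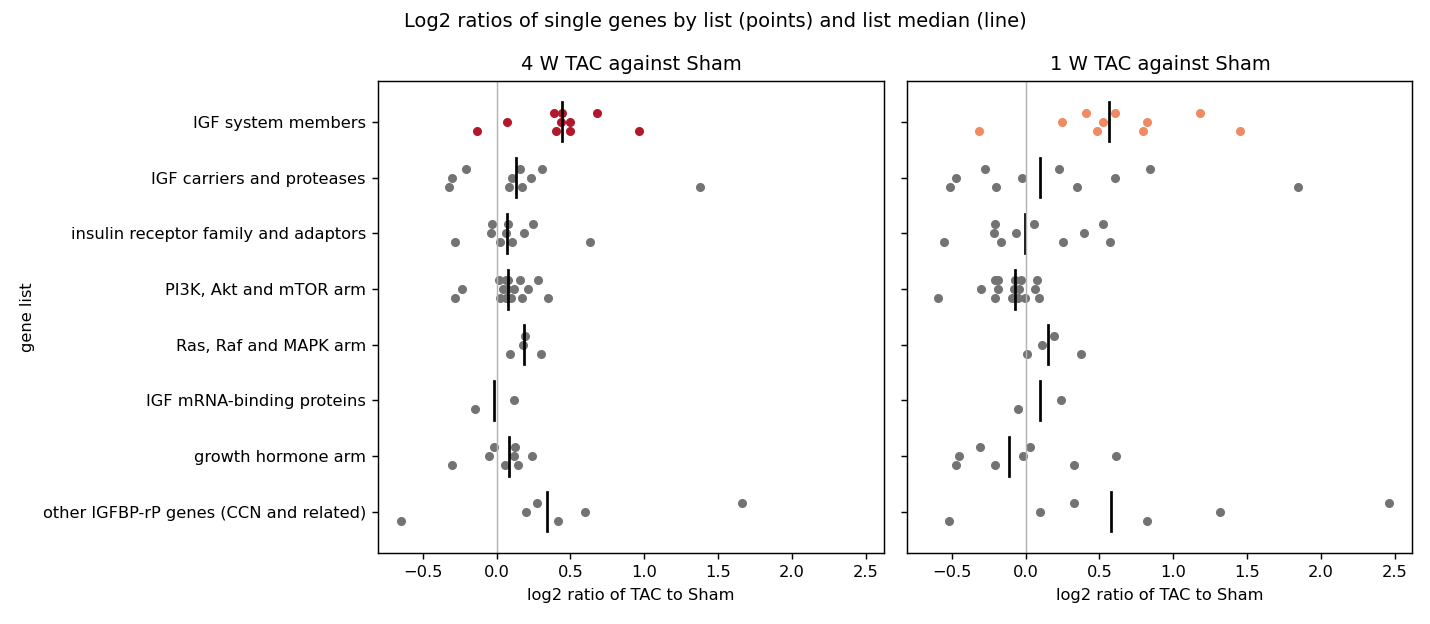
Log2 ratio to Sham (x axis) of each gene (points) in the IGF system and in 7 pathway lists (y axis), with the list median (line), for 4 W TAC (left) and 1 W TAC (right). The median of the members is 0.44 in 4 W TAC and 0.57 in 1 W TAC, while that of the PI3K, Akt and mTOR arm is 0.08 in 4 W TAC and -0.08 in 1 W TAC.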

How the data were processed

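RNA of left ventricles was hybridized to Affymetrix Mouse Exon 1.0 ST arrays. RNA extraction is given as Trizol in the labels and as a column kit in the study's methods. The deposited log2 values were made by the authors with RMA in Affymetrix Expression Console (background correction, quantile normalization, summary per gene), so signals compare arrays for 1 gene and not genes with each other. The sources used here give no annotation build and no detection calls, no row was filtered, and isoforms are not separated. All array columns were used (0 left out). The replicates are separate mice by the methods.

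One mean per group was fitted to all 6 arrays (R 4.3.3, limma 3.58.1, eBayes; residual degrees of freedom 3, prior 2.68), with Benjamini-Hochberg adjustment over 23332 rows and a threshold of 0.05; the test was checked on simulated data. An exact test of 2 against 2 arrays cannot go below p = 0.333. Named genes were all members, up to 3 genes at each end of a pathway list by the 1 W TAC ratio and those past the test, the 5 nearest to Igf1, and Ucp1. Single genes of the marker lists were named outside this rule. Members, lists and markers were chosen with earlier results of these data known. Alternatives changed normalization, filter, rows, prior, samples and block.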

Additional observations from a re-analysis of the deposited data

How the results depend on the processing

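The median log2 ratio of the members kept its direction under all alternatives tried: 0.32 to 0.54 in 4 W TAC against Sham, 0.52 to 0.68 in 1 W TAC against Sham, and -0.37 to -0.21 in 4 W TAC against 1 W TAC. Counts of rows passing the test moved more. For 1 W TAC against Sham, where 0 rows passed as higher and 1 as lower, testing only rows with 1 gene symbol gave 205 higher and 63 lower, with 2 members among the higher (fewer rows were tested and the prior was refitted, so that unadjusted p-values fell too). Leaving out the rows of lowest signal gave 27 higher and 4 lower, a prior with trend and robust settings 13 higher, a repeated quantile normalization 3 and centering on the median 2. The single lower row was lost (0) with only the 2 groups of the comparison, without the 2 arrays of high Ucp1, and when any of the 6 arrays was left out (range 0 to 0), while the higher rows ranged from 0 to 1, where the 1 needed 1 W TAC replicate 1 to be left out. Rows with 1 gene symbol gave 1 higher in 4 W TAC against Sham. For 4 W TAC against 1 W TAC they gave 2 lower, and leaving out rows of low signal or centering on the median gave 1 higher each. The methods' t-test (fold above 1.5 and unadjusted p under 0.05, a criterion the study states for splicing factors only) passed 159 higher and 167 lower rows in 4 W TAC against Sham, with 1 member (Igfbp7). It passed 433 higher and 396 lower in 1 W TAC against Sham, with 3 members (Igf1, Igfbp4 and Igfbp7), and 169 higher and 186 lower in 4 W TAC against 1 W TAC, with 1 member (Igf1); after Benjamini-Hochberg adjustment it passed 0 in all 3. Replicate numbers did not pair the arrays: deviations of same-numbered arrays correlated at 0.08 between 4 W TAC and 1 W TAC, -0.17 between 4 W TAC and Sham, and -0.15 between 1 W TAC and Sham. With the replicate number as a block, 0 rows passed as lower in 1 W TAC against Sham, and with crossed numbers, an alternative chosen after seeing the data, 0 as well. The 2 ratios nearest 0 turned sign: Igf2r in 4 W TAC against Sham was -0.15 without 4 W TAC replicate 2 and -0.13 without Sham replicate 2 (up to 0.29 without 4 W TAC replicate 1), and Igf1r in 4 W TAC against 1 W TAC was -0.16 without 4 W TAC replicate 2 and -0.12 without 1 W TAC replicate 1 (up to 0.33 without 4 W TAC replicate 1). Where not stated, the cause was not tested. With 2 arrays in a group, SEs of 0.17 to 0.27 left most member intervals including 0. Each member had 1 row, so no other row could be tried.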
